A study of Arabidopsis thaliana with 18 samples.

Results

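Proline synthesis, breakdown and transport were followed through 9 Arabidopsis thaliana genes, chosen by gene identifier from the 27655 genes counted in each library. On the side of synthesis were P5CS1, P5CS2 and P5CR, and on the side of breakdown PRODH1, PRODH2 and P5CDH. The others were the transporter genes PROT1 and PROT2, and OAT, which makes an intermediate shared by both sides. All 9 passed the filter on low counts, which left 17678 genes for testing. RNA came from whole rosette leaves of plants 32 days old. JAR1-OE is a line that overexpresses JAR1.1, with a YFP-JAR1 entry among the counted sequences, and the labels do not name the promoter that drives it. The jar1-11 line carries the T-DNA insertion SALK_034543 and is labelled a knockdown of JAR1. WT is the accession Col-0, which carries neither. The product of JAR1 couples jasmonic acid with isoleucine, which yields the active form of the hormone. Each genotype was represented by 3 droughted libraries, from plants watered for 18 days and then left without water for 14 days, and by 3 control libraries from plants watered throughout. Each altered genotype was 1 line. The 18 libraries are labelled as biological replicates, with no word on single plants or pools, so a p-value reflects only how far these libraries scattered.

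Proline is a compatible solute that plants build up when water is short and break down again when water returns. It is made from glutamate in the cytosol and chloroplast by P5CS, the rate-limiting enzyme, followed by P5CR, and it is oxidised back to glutamate in mitochondria by PRODH and then P5CDH. OAT makes the shared intermediate from ornithine in mitochondria, and the PROT proteins carry proline across the plasma membrane.

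Libraries held 4716155 to 9506727 reads on genes, and levels are given in CPM with TMM scaling, in which 3 reads came to 0.316 to 0.636. The JAR1 row averaged 33.5 ± 5.02 CPM in droughted JAR1-OE, 2.87 ± 1.19 CPM in droughted jar1-11 and 32.9 ± 7.40 CPM in droughted WT (SD, n = 3 each). In watered leaves JAR1 averaged 23.8 ± 3.27 CPM in JAR1-OE, 5.69 ± 0.804 CPM in jar1-11 and 25.3 ± 4.18 CPM in WT. The YFP-JAR1 entry had 26 to 558 reads in droughted and 88 to 307 reads in watered JAR1-OE libraries, and 0 reads in the 12 libraries of the other genotypes. The JAR1 row matched the label of jar1-11, but it did not separate JAR1-OE from WT, so overexpression was not seen in that row. The YFP-JAR1 entry had reads in JAR1-OE alone, which matches the presence of the transgene there. Under drought JAR1 was lower in jar1-11 than in WT, at -3.57 ± 0.27 on the log2 scale (edgeR adjusted p = 8.53e-07). Markers of leaf mesophyll (4 genes, summed) spanned 4203 to 6006 CPM in droughted and 10609 to 16980 CPM in watered JAR1-OE. The same sum spanned 465 to 609 CPM in droughted and 4559 to 6138 CPM in watered jar1-11, and 1346 to 1862 CPM in droughted and 5682 to 7549 CPM in watered WT. In droughted leaves the mesophyll sums therefore ran in the order JAR1-OE, WT, jar1-11 with no overlap. That is the reverse of the order of P5CS2, OAT and P5CDH, and the part of these markers in those results was not tested. In JAR1-OE, RBCS1A averaged 3098 CPM in droughted and 9738 CPM in watered leaves, LHCB1.1 935 and 2934 CPM, and CA1 571 and 1237 CPM. LHCB2.1 went the other way there, at 498 and 395 CPM. Markers of senescent leaves (3 genes) summed to 66.2 to 182 CPM in droughted JAR1-OE, 244 to 312 CPM in droughted jar1-11 and 113 to 210 CPM in droughted WT, and their part was not tested either. The 3 markers did not move alike. In droughted JAR1-OE, jar1-11 and WT, ORE1 averaged 41.0, 186 and 79.6 CPM, and SGR1 78.6, 93.4 and 90.2 CPM. SAG12 averaged 6.39, 1.59 and 0.586 CPM there, against 2.18, 15.1 (SD 20.9) and 2.30 CPM in the watered groups. Flower markers (6 genes) summed to 12.1 to 39.5 CPM in droughted JAR1-OE, 0.895 to 1.63 CPM in droughted jar1-11 and 0.251 to 39.9 CPM in droughted WT, against 1.46 to 4.53 CPM in the 9 watered libraries. The WT value of 39.9 CPM came from droughted library 1, which stood apart from the other WT libraries in these markers. Changes in the calls of the 9 genes without that library are given below or in the closing section. All droughted JAR1-OE libraries were also above the 9 watered ones. Flower markers and genotype cannot be told apart there, and the part of these markers was not tested. Root markers (4 genes) summed to at least 25.9 CPM in each droughted JAR1-OE library, 10.6 to 12.2 CPM in droughted jar1-11 and 19.2 to 21.4 CPM in droughted WT, against 19.6 to 44.1 CPM in the 9 watered libraries. The droughted sums followed the order of the mesophyll sums, but not every marker did. In droughted JAR1-OE, jar1-11 and WT, SHR averaged 14.9, 3.43 and 6.65 CPM, and SCR 12.0, 8.14 and 13.3 CPM. PYK10 and WOX5 averaged at most 0.641 CPM in these droughted groups. The part of the root markers was not tested.

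Drought changed most of the pathway in every genotype. Tests were made with edgeR's quasi-likelihood F-test and Benjamini-Hochberg adjustment over all genes tested, and a gene was called at an adjusted p under 0.05. In JAR1-OE 4 of the 9 genes were higher and 2 lower under drought, where 29.1% of all genes were called. In jar1-11 7 were higher and 2 lower, where 58.4% of all genes were called. In WT 5 were higher and 2 lower, where 39.3% of all genes were called. The median log2 fold change of the 9 genes was 0.22 in JAR1-OE, 1.55 in jar1-11 and 0.92 in WT, beside medians over all genes of 0.01, -0.01 and -0.01. Genes of both synthesis and breakdown were among the higher ones, while PRODH1 and PROT1 were the lower ones in each genotype. In RNA from whole leaves, fewer cells of a type and less RNA per cell cannot be told apart.

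**Figure D1:**
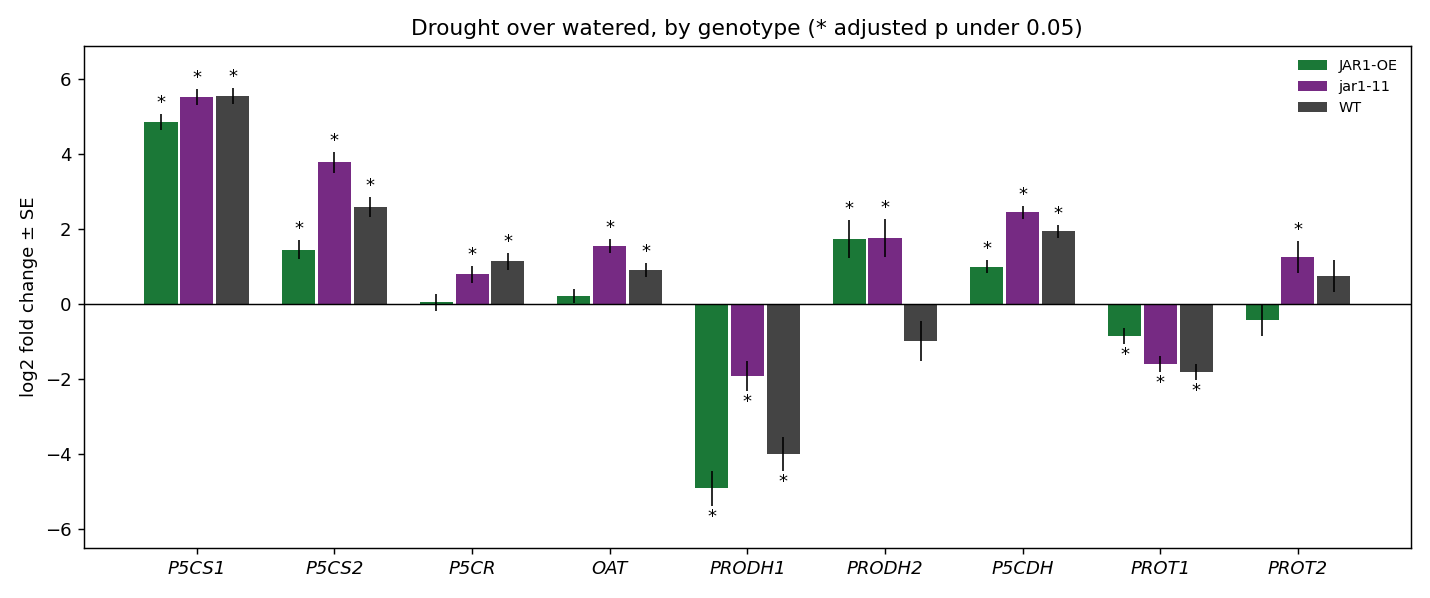
Bars show log2 fold changes of drought over control (y axis) for the 9 proline genes (x axis) in JAR1-OE, jar1-11 and WT, with error bars of 1 SE from the edgeR fit and stars for an adjusted p under 0.05. P5CS1 lies between 4.86 and 5.55 and PRODH1 between -4.92 and -1.91, and the bars of P5CS2, OAT and P5CDH are tallest in jar1-11.

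P5CS1 (AT2G39800), which encodes the stress-induced isoform of the rate-limiting enzyme, showed the strongest rise of the 9 genes in all 3 genotypes. In JAR1-OE, P5CS1 had 801, 790.4 and 917 CPM in droughted libraries, against 26.3, 32.1 and 28.1 CPM in watered ones. In jar1-11, P5CS1 had 996, 939 and 1111 CPM in droughted libraries, against 26.3, 21.6 and 17.9 CPM in watered ones. In WT, P5CS1 had 921, 1344 and 1601 CPM in droughted libraries, against 31.2, 26.4 and 25.1 CPM in watered ones. Each droughted library was thus far above each watered one, and the droughted WT libraries were the most spread. The log2 fold change was 4.86 ± 0.22 (SE) in JAR1-OE, a 29.0-fold rise (edgeR adjusted p = 5.64e-11). It was 5.52 ± 0.22 in jar1-11, a 46.0-fold rise (edgeR adjusted p = 1.78e-12). It was 5.55 ± 0.22 in WT, a 46.9-fold rise (edgeR adjusted p = 4.23e-12). The gene spans chr2:16598072-16603319 on the minus strand of TAIR10.1, and its transcribed span shares 91 bases with AT2G39795 on the other strand. The sources used here do not say how the counting treated strand, so reads from these bases cannot be told apart. AT2G39795 averaged 4.89 CPM in droughted and 10.0 CPM in watered JAR1-OE, 4.43 and 12.8 CPM in jar1-11, and 5.03 and 12.0 CPM in WT, opposite in direction to P5CS1.

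P5CS2 (AT3G55610), the isoform usually described as housekeeping, also rose in all 3 genotypes, and here the genotypes differed widely. In JAR1-OE, P5CS2 had 99.7, 106 and 127 CPM in droughted libraries, against 38.3, 47.4 and 35.9 CPM in watered ones. In jar1-11, P5CS2 had 746, 574 and 545 CPM in droughted libraries, against 42.8, 42.5 and 50.5 CPM in watered ones. In WT, P5CS2 had 159, 253 and 419.9 CPM in droughted libraries, against 50.0, 38.3 and 49.7 CPM in watered ones. The droughted libraries of the 3 genotypes did not overlap, with jar1-11 highest, WT between and JAR1-OE lowest, while all 9 watered libraries lay between 35.9 and 50.5 CPM. The log2 fold change was 1.45 ± 0.25 in JAR1-OE, a 2.73-fold rise (edgeR adjusted p = 2.72e-04). It reached 3.78 ± 0.27 in jar1-11, a 13.7-fold rise (edgeR adjusted p = 1.43e-09). In WT it was 2.59 ± 0.26, a 6.04-fold rise (edgeR adjusted p = 2.70e-07). P5CS2 spans chr3:20624020-20629295 (minus strand) and shares 32 bases with AT3G55605 on the other strand, which averaged 5.30 to 9.55 CPM over the 6 groups. No exact stretch of 50 bases, the read length, was shared by any of the 36 pairs among the spans of the 9 genes. Matches with mismatches and genes outside the 9 were not compared.

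**Figure D2:**
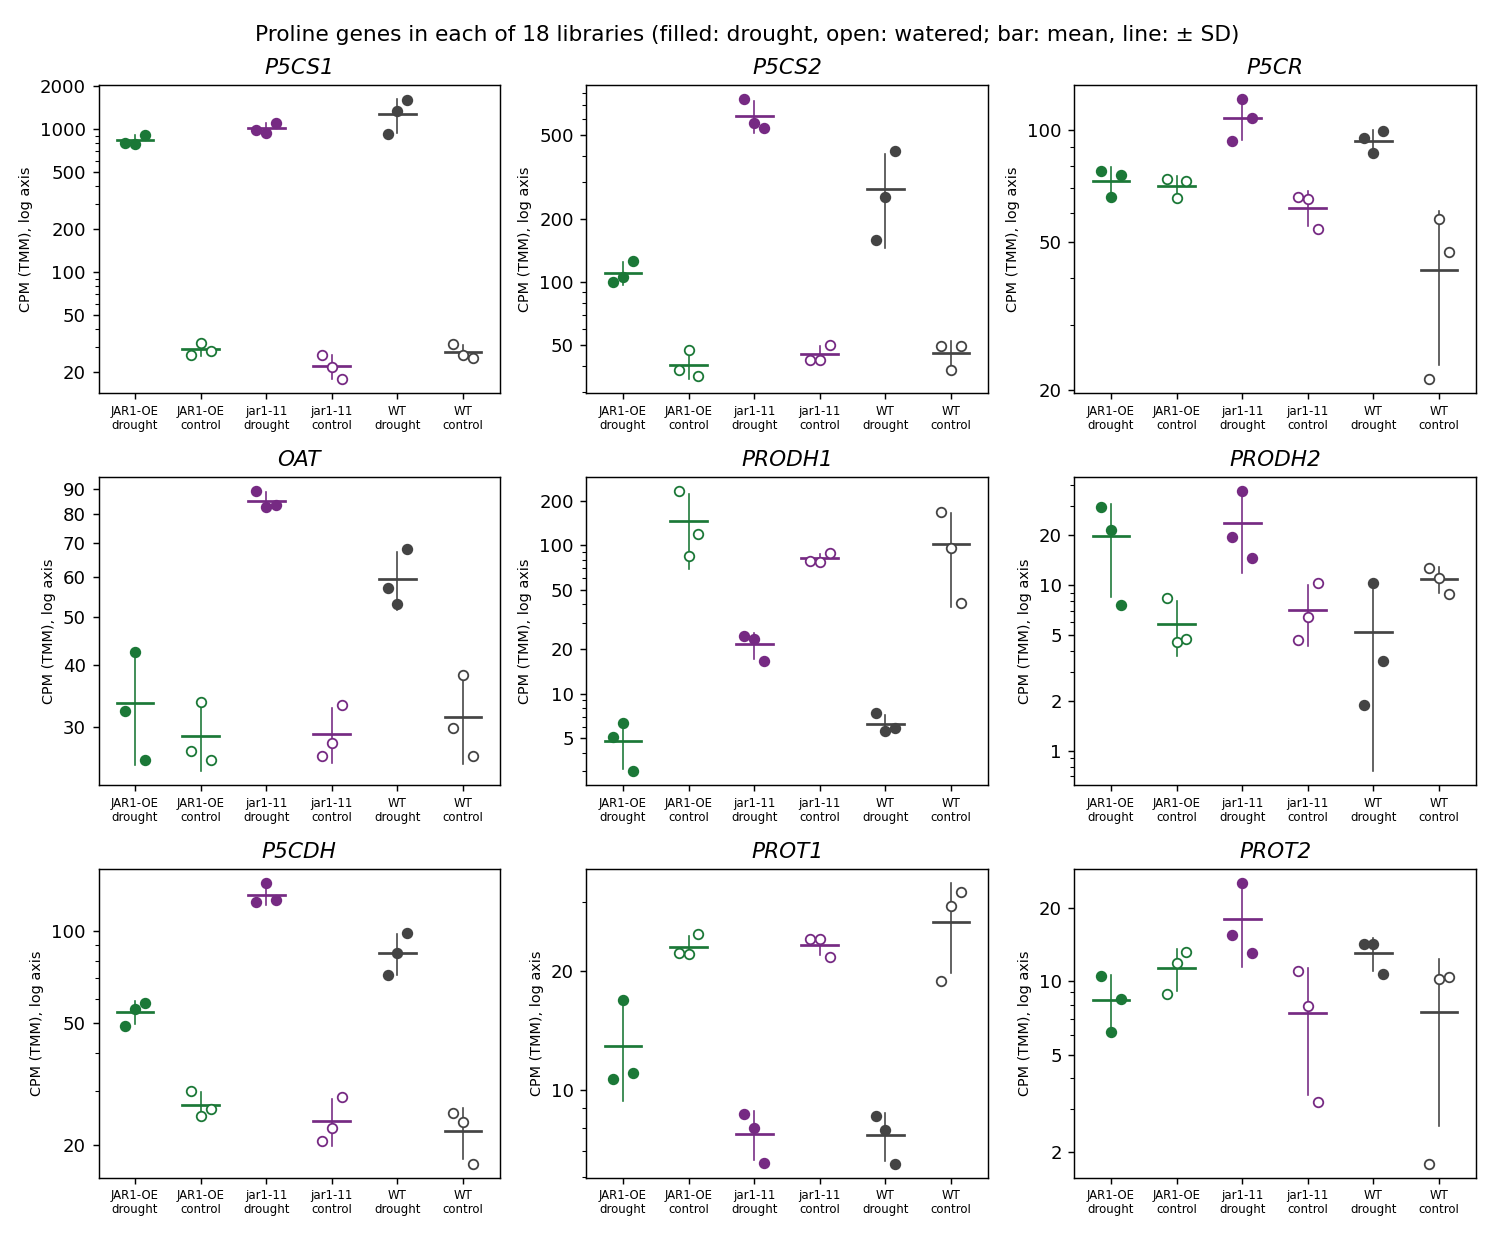
CPM (log axis) of the 9 genes in each library, by genotype and condition, with points for libraries and lines for the mean and SD of 3. P5CS2, OAT and P5CDH separate the droughted genotypes in the order jar1-11, WT, JAR1-OE, and PRODH1 is higher in droughted jar1-11 than in the other droughted leaves.

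The balance between the P5CS genes was compared within libraries as the log2 ratio of P5CS1 to P5CS2 reads, with 0.5 added to each. It averaged 2.92 ± 0.08 in droughted and -0.49 ± 0.11 in watered JAR1-OE (SD, n = 3 each). In jar1-11 it averaged 0.72 ± 0.31 under drought and -1.05 ± 0.40 with water. In WT it averaged 2.29 ± 0.32 under drought and -0.73 ± 0.23 with water. P5CS1 reads outnumbered P5CS2 reads in each droughted library and were fewer in each watered one. The difference of drought from control, averaged over genotypes, was 2.73. The ratios given here are descriptions, with no test, since the pairs of genes were chosen with their changes known. In droughted leaves the ratios of the 3 genotypes did not overlap, at 2.86 to 3.01 in JAR1-OE, 0.42 to 1.03 in jar1-11 and 1.93 to 2.53 in WT.

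P5CR (AT5G14800, chr5:4785960-4787996, minus strand) encodes the enzyme of the final step to proline. In JAR1-OE, P5CR had 77.7, 66.0 and 75.5 CPM in droughted libraries, against 73.7, 65.7 and 72.8 CPM in watered ones. In jar1-11, P5CR had 93.7, 121 and 108 CPM in droughted libraries, against 66.0, 65.5 and 54.1 CPM in watered ones. In WT, P5CR had 95.2, 86.5 and 99.4 CPM in droughted libraries, against 21.4, 57.6 and 47.0 CPM in watered ones. Droughted and watered libraries overlapped in JAR1-OE and were apart in jar1-11 and WT. The gene rose in jar1-11 by a log2 fold change of 0.80 ± 0.23 (edgeR adjusted p = 0.0053) and in WT by 1.15 ± 0.23 (edgeR adjusted p = 5.59e-04). In JAR1-OE the log2 fold change was 0.05 ± 0.22 (edgeR adjusted p = 0.898), which did not pass. Watered WT library 1 held the lowest value, and without it the change in WT was 0.84 and still called.

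OAT (AT5G46180, chr5:18718417-18721744, minus strand) encodes ornithine aminotransferase. In JAR1-OE, OAT had 32.4, 42.5 and 25.9 CPM in droughted libraries, against 26.9, 33.8 and 25.8 CPM in watered ones. In jar1-11, OAT had 89.1, 82.8 and 83.6 CPM in droughted libraries, against 26.3, 27.9 and 33.2 CPM in watered ones. In WT, OAT had 57.0, 53.0 and 68.3 CPM in droughted libraries, against 29.9, 38.2 and 26.2 CPM in watered ones. As for P5CS2, the droughted libraries of the 3 genotypes did not overlap, while the 9 watered libraries lay between 25.8 and 38.2 CPM. The log2 fold change was 1.55 ± 0.19 in jar1-11 (edgeR adjusted p = 1.02e-06) and 0.92 ± 0.19 in WT (edgeR adjusted p = 6.31e-04). In JAR1-OE it was 0.22 ± 0.19 (edgeR adjusted p = 0.409), which did not pass.

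PRODH1 (AT3G30775), which encodes the proline dehydrogenase that starts breakdown, fell under drought in all 3 genotypes. In JAR1-OE, PRODH1 had 5.14, 6.36 and 2.99 CPM in droughted libraries, against 231, 85.2 and 119 CPM in watered ones. In jar1-11, PRODH1 had 24.3, 23.5 and 16.6 CPM in droughted libraries, against 78.4, 77.6 and 88.5 CPM in watered ones. In WT, PRODH1 had 7.37, 5.65 and 5.88 CPM in droughted libraries, against 167, 96.2 and 41.0 CPM in watered ones. No droughted library reached any watered one, and the 3 droughted jar1-11 libraries were above the 6 other droughted libraries. The log2 fold change was -4.92 ± 0.46 in JAR1-OE, a 30.2-fold fall (edgeR adjusted p = 2.53e-07). It was -1.91 ± 0.39 in jar1-11, a 3.77-fold fall (edgeR adjusted p = 4.00e-04). It was -4.00 ± 0.45 in WT, a 16.0-fold fall (edgeR adjusted p = 9.17e-07). The watered libraries scattered widely within JAR1-OE and within WT and little within jar1-11.

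PRODH2 (AT5G38710, chr5:15501126-15504269, plus strand), the second proline dehydrogenase gene, moved in the opposite direction in both altered lines. In JAR1-OE, PRODH2 had 29.8, 21.5 and 7.62 CPM in droughted libraries, against 8.31, 4.53 and 4.72 CPM in watered ones. In jar1-11, PRODH2 had 19.5, 36.9 and 14.5 CPM in droughted libraries, against 4.65, 6.43 and 10.2 CPM in watered ones. In WT, PRODH2 had 1.88, 10.3 and 3.47 CPM in droughted libraries, against 12.7, 11.0 and 8.84 CPM in watered ones. The droughted values scattered widely within each genotype, and the conditions overlapped in JAR1-OE and WT. The gene rose in JAR1-OE by a log2 fold change of 1.74 ± 0.52 (edgeR adjusted p = 0.0159) and in jar1-11 by 1.78 ± 0.50 (edgeR adjusted p = 0.00554). In WT the log2 fold change was -0.99 ± 0.54 (edgeR adjusted p = 0.154), which did not pass. The call in JAR1-OE ended without droughted JAR1-OE library 1 or watered JAR1-OE library 2 or 3 (edgeR adjusted p = 0.0613 to 0.0981). Without droughted WT library 2, which held the highest droughted WT value, WT was called lower at -1.97 (edgeR adjusted p = 0.0146).

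P5CDH (AT5G62530), which encodes the enzyme that completes the return to glutamate, rose under drought in all 3 genotypes while PRODH1 fell. In JAR1-OE, P5CDH had 49.0, 55.6 and 58.4 CPM in droughted libraries, against 30.1, 24.9 and 26.2 CPM in watered ones. In jar1-11, P5CDH had 125, 143 and 126 CPM in droughted libraries, against 20.6, 22.8 and 28.7 CPM in watered ones. In WT, P5CDH had 72.0, 84.5 and 98.2 CPM in droughted libraries, against 25.4, 23.8 and 17.4 CPM in watered ones. The droughted libraries again fell into the order jar1-11, WT, JAR1-OE without overlap, as for P5CS2 and OAT. The share of all tested genes with such an order was not counted, so the order is not shown to be particular to these genes. The log2 fold change was 1.00 ± 0.17 in JAR1-OE (edgeR adjusted p = 1.96e-04), 2.46 ± 0.17 in jar1-11 (edgeR adjusted p = 1.13e-09) and 1.94 ± 0.17 in WT (edgeR adjusted p = 5.93e-08). P5CDH spans chr5:25099003-25103312 on the minus strand and shares 905 bases with SRO5 on the other strand, a pair known in salt-treated Arabidopsis for small RNAs made from the overlap. SRO5 had 24.9, 32.0 and 17.9 CPM in droughted jar1-11, against 0.207, 3.94 and 5.20 CPM in watered jar1-11, a log2 fold change of 3.09 ± 0.64 (edgeR adjusted p = 4.05e-04), which was 2.45 without watered jar1-11 library 1 and 3.71 without library 3. It averaged 2.36 CPM in droughted and 0.544 CPM in watered JAR1-OE, and 2.07 CPM in droughted and 1.16 CPM in watered WT. SRO5 and P5CDH were thus both highest in droughted jar1-11, and reads from the overlap cannot be told apart without the strand setting. With libraries from a 3′ kit, the share of P5CDH reads from these bases need not follow their share of the span. That share was not measured, so the P5CDH levels carry this limit.

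The 250 bases before the starts of PRODH1 and P5CDH are shown because the letters ACTCAT, known as the ProDH element through which bZIP factors of groups C and S act on PRODH1, occurred among the 9 genes in these windows alone. Sequences are from TAIR10.1 (RefSeq), read 5′ to 3′ on the strand of the gene, with matches on either strand in capitals.
PRODH1, chr3:12451557-12451806, minus strand: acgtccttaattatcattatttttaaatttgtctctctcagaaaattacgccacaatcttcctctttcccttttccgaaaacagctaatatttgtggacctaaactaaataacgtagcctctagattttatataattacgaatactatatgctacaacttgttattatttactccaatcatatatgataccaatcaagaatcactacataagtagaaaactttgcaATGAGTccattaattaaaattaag
P5CDH, chr5:25103313-25103562, minus strand: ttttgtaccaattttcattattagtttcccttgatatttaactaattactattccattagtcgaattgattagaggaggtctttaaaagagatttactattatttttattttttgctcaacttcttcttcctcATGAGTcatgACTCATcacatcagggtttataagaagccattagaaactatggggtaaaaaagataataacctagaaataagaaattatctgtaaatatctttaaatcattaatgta
PRODH1 held 1 match, on the opposite strand, 24 to 19 bases before the start. P5CDH held 2, 117 to 112 bases before the start on the opposite strand and 107 to 102 bases before it on the gene's strand. Of 27443 windows of the same length, 12.3% held at least 1 match and 1.02% held 2 or more. PRODH1 and P5CDH, which share these letters, moved in opposite directions under drought. The core of the abscisic acid response element, ACGTG, was found before P5CR and PROT1 and in 22.9% of all windows, and the core of the dehydration response element, CCGAC, before P5CS2 and P5CR and in 12.0% of all windows. The windows of P5CS1, OAT, PRODH2 and PROT2 held none of the 3. The OAT window overlaps the annotated gene AT5G46190, and the PROT2 window overlaps AT3G00920. A match is a description of letters and is not shown to be a known binding site, and none of the files measured binding.

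The log2 ratio of P5CS1 to PRODH1 reads within a library sets the synthesis gene with the largest rise of the 9 beside the breakdown gene that fell, whereas P5CDH of breakdown rose. It averaged 7.48 ± 0.67 in droughted and -2.21 ± 0.87 in watered JAR1-OE (SD, n = 3 each). In jar1-11 it averaged 5.58 ± 0.42 under drought and -1.90 ± 0.37 with water. In WT it averaged 7.63 ± 0.60 under drought and -1.66 ± 0.87 with water. The sign was the same in all 9 libraries of a condition, and the 3 droughted jar1-11 libraries were below the 6 other droughted libraries. Drought minus control was 9.69 in JAR1-OE, 7.48 in jar1-11 and 9.29 in WT, with a mean of 8.82. The ratio of PRODH1 to PRODH2 reads averaged -1.86 ± 0.60 in droughted and 4.54 ± 0.30 in watered JAR1-OE. In jar1-11 it averaged -0.05 ± 0.53 under drought and 3.58 ± 0.48 with water. In WT it averaged 0.60 ± 1.39 under drought and 3.01 ± 0.75 with water. PRODH1 reads outnumbered PRODH2 reads in each watered library, and in droughted JAR1-OE the order was turned round in all 3 libraries. Drought minus control averaged -4.15 over genotypes.

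**Figure D3:**
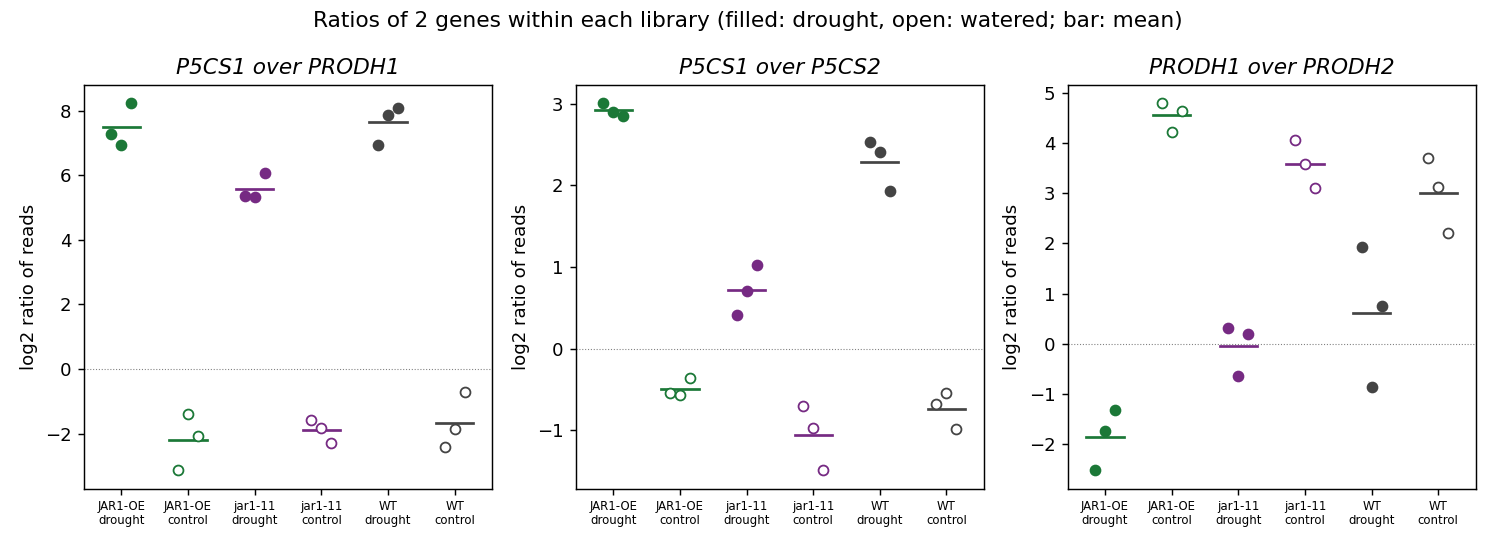
Log2 ratios of reads of 2 genes within a library (y axes), by genotype and condition, with a point for each library and a line for the mean of 3. P5CS1 over PRODH1 changes sign in each genotype, and in droughted leaves the P5CS1 over P5CS2 ratio is 2.86 to 3.01 in JAR1-OE, 0.42 to 1.03 in jar1-11 and 1.93 to 2.53 in WT.

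The transporter genes behaved differently from each other. PROT1 (AT2G39890, chr2:16655577-16658412, plus strand) had 10.7, 17.0 and 11.0 CPM in droughted JAR1-OE, against 22.3, 22.1 and 24.9 CPM in watered JAR1-OE. In jar1-11, PROT1 had 8.65, 8.01 and 6.51 CPM in droughted libraries, against 24.2, 24.3 and 21.8 CPM in watered ones. In WT, PROT1 had 8.57, 7.91 and 6.49 CPM in droughted libraries, against 19.0, 29.3 and 31.9 CPM in watered ones. PROT1 thus fell below every watered library in each genotype. The log2 fold change was -0.85 ± 0.21 in JAR1-OE (edgeR adjusted p = 0.00408), -1.59 ± 0.22 in jar1-11 (edgeR adjusted p = 4.43e-06) and -1.81 ± 0.21 in WT (edgeR adjusted p = 1.96e-06). PROT2 (AT3G55740, chr3:20695433-20698292, plus strand), described in Arabidopsis as responsive to stress, averaged 8.39 ± 2.17 CPM in droughted and 11.3 ± 2.22 CPM in watered JAR1-OE. In jar1-11, PROT2 had 15.5, 25.2 and 13.0 CPM in droughted libraries, against 11.1, 7.89 and 3.19 CPM in watered ones. In WT it averaged 13.0 ± 2.02 CPM under drought and 7.45 ± 4.91 CPM with water. It passed in jar1-11, at 1.25 ± 0.42 (edgeR adjusted p = 0.0161). That call ended without watered jar1-11 library 3 or droughted jar1-11 library 2 (edgeR adjusted p = 0.0759 and 0.103). In JAR1-OE the log2 fold change was -0.43 ± 0.43 (edgeR adjusted p = 0.493) and in WT 0.75 ± 0.43 (edgeR adjusted p = 0.179).

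In droughted leaves JAR1-OE was lower than WT in 4 of the 9 genes and higher in 2, where 15.9% of all genes were called. The lower ones were P5CS2, OAT, P5CDH and P5CS1, so they lay on both sides of the pathway, and the higher ones were PROT1 and PRODH2. P5CS2 was 2.51-fold lower, a log2 fold change of -1.33 ± 0.25 (edgeR adjusted p = 0.00122), and OAT was 1.77-fold lower, at -0.82 ± 0.18 (edgeR adjusted p = 0.00475). Both remained called without any 1 library. P5CDH was lower, at -0.64 ± 0.16 (edgeR adjusted p = 0.0115), a call that ended without droughted WT library 3 or JAR1-OE library 1 (edgeR adjusted p = 0.0751 and 0.0618). P5CS1 was lower, at -0.62 ± 0.18 (edgeR adjusted p = 0.0245), which ended without droughted WT library 2 or 3 or JAR1-OE library 1 or 2 (edgeR adjusted p = 0.0618 to 0.167). PROT1 was higher by 0.74 ± 0.22 (edgeR adjusted p = 0.0260), which ended without droughted WT library 2 or 3 or JAR1-OE library 2 (edgeR adjusted p = 0.0806 to 0.152). PRODH2 was higher by 1.86 ± 0.52 (edgeR adjusted p = 0.0189), which ended without droughted WT library 1 or 3 or JAR1-OE library 1 or 2 (edgeR adjusted p = 0.0505 to 0.115) and came to 2.81 without droughted WT library 2. The count of 6 calls was 2 without droughted WT library 3 and 3 without droughted JAR1-OE library 1 or 2. PRODH1, P5CR and PROT2 did not pass, at -0.39 ± 0.49 (edgeR adjusted p = 0.659), -0.36 ± 0.22 (0.313) and -0.63 ± 0.42 (0.358).

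In droughted leaves jar1-11 was higher than WT in 5 of the 9 genes and lower in none, where 34.5% of all genes were called. PRODH1 and PRODH2, the genes that start breakdown, were 3.44-fold and 4.41-fold higher, at 1.78 ± 0.44 (edgeR adjusted p = 0.00455) and 2.14 ± 0.52 (edgeR adjusted p = 0.0039). P5CS2 was 2.24-fold higher, at 1.16 ± 0.25 (edgeR adjusted p = 0.00148). These 3 remained called without any 1 library, although PRODH2 came to 3.10 without droughted WT library 2. P5CDH was higher by 0.63 ± 0.16 (edgeR adjusted p = 0.0061), and without droughted WT library 1, the one with flower markers, the value was 0.50 (edgeR adjusted p = 0.0504). OAT was higher by 0.52 ± 0.18 (edgeR adjusted p = 0.0325), which ended without droughted WT library 1 or 2 or any droughted jar1-11 library (edgeR adjusted p = 0.0550 to 0.147). P5CS1 did not pass, at -0.34 ± 0.18 (edgeR adjusted p = 0.151), and was called lower at -0.56 without droughted WT library 1 (edgeR adjusted p = 0.0253). P5CR, PROT1 and PROT2 had log2 fold changes of 0.20, 0.03 and 0.47 that did not pass. The comparisons with WT share the WT libraries.

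**Figure D4:**
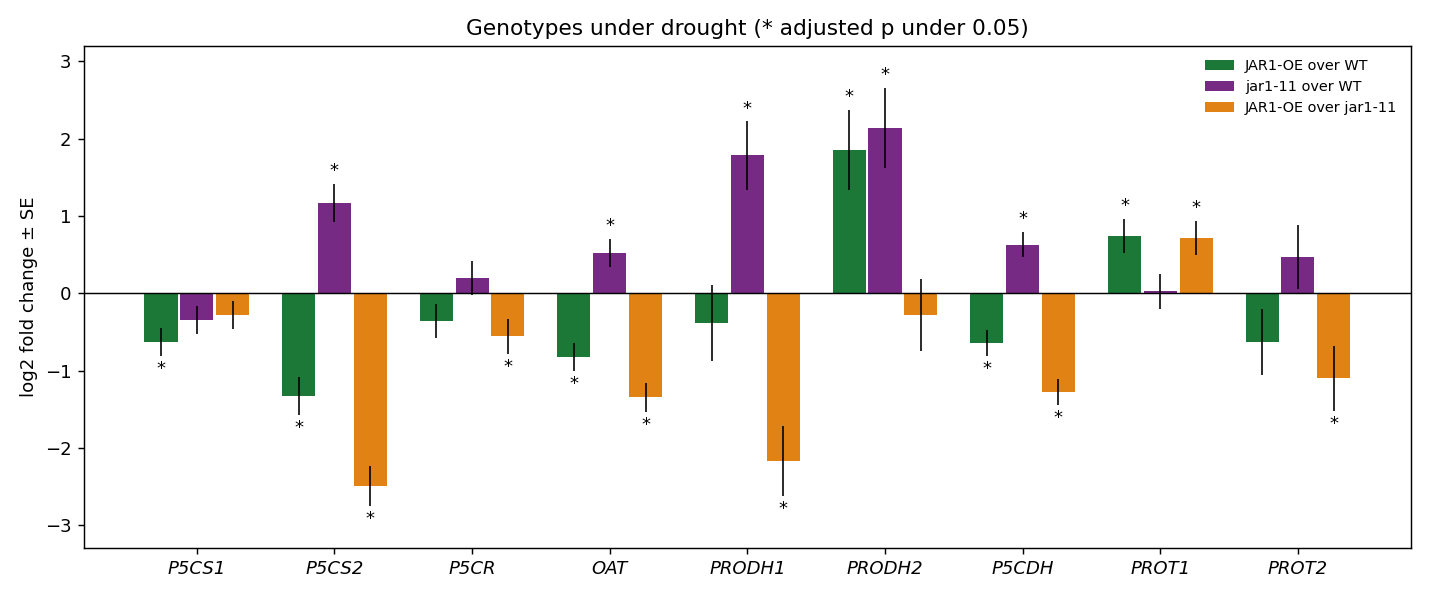
Bars show log2 fold changes between genotypes in droughted leaves (y axis) for the 9 genes (x axis), as JAR1-OE over WT, jar1-11 over WT and JAR1-OE over jar1-11, with error bars of 1 SE from the edgeR fit and stars for an adjusted p under 0.05. P5CS2, OAT and P5CDH lie below 0 for JAR1-OE over WT and above 0 for jar1-11 over WT, and PRODH2 lies above 0 in both.

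JAR1-OE set against jar1-11 under drought was lower in 6 of the 9 genes and higher in 1, where 53.5% of all genes were called. P5CS2 was 5.62-fold lower, at -2.49 ± 0.26 (edgeR adjusted p = 3.51e-07). PRODH1 was 4.50-fold lower, at -2.17 ± 0.45 (edgeR adjusted p = 5.66e-04), OAT 2.54-fold lower, at -1.34 ± 0.18 (8.95e-06), and P5CDH 2.42-fold lower, at -1.27 ± 0.17 (4.75e-06). These 4 were called without any 1 library and in every other setting tried. PROT2 was lower, at -1.10 ± 0.42 (edgeR adjusted p = 0.0347), which ended without droughted jar1-11 library 2 or JAR1-OE library 2 or 3 (edgeR adjusted p = 0.0763 to 0.171). P5CR was lower, at -0.56 ± 0.22 (edgeR adjusted p = 0.0436), which ended without droughted jar1-11 library 2 or 3 or any droughted JAR1-OE library (edgeR adjusted p = 0.0661 to 0.126). PROT1 was higher by 0.72 ± 0.22 (edgeR adjusted p = 0.0103), which ended without droughted JAR1-OE library 2 (edgeR adjusted p = 0.0799), and without that library 4 of the 7 calls were left. P5CS1 and PRODH2 did not pass, at -0.28 ± 0.18 (edgeR adjusted p = 0.203) and -0.28 ± 0.47 (edgeR adjusted p = 0.636).

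In watered leaves few differences between the genotypes passed. P5CR was higher in JAR1-OE than in WT by 0.74 ± 0.23 (edgeR adjusted p = 0.0446), the 1 gene of 9 called there, where 10.5% of all genes were called. That call ended without watered WT library 1 or 3 or any watered JAR1-OE library (edgeR adjusted p = 0.0616 to 0.140). Between jar1-11 and WT 0 of 9 genes were called by edgeR and 0 by DESeq2, 1 had an unadjusted p under 0.05, and 0.00566% of all genes were called. Between JAR1-OE and jar1-11 0 of 9 were called by edgeR, 1 had an unadjusted p under 0.05, and 10.1% of all genes were called. Over these 3 comparisons the log2 fold changes of P5CS1, P5CS2, OAT and P5CDH lay between -0.32 and 0.38. PRODH1 was at 0.84 in JAR1-OE over jar1-11, which did not pass (edgeR adjusted p = 0.167). PRODH2 averaged 5.85 CPM in watered JAR1-OE, 7.10 CPM in jar1-11 and 10.8 CPM in WT. It was at most 8.31 CPM in JAR1-OE and at least 8.84 CPM in WT, although the difference did not pass. These watered levels enter the differences of response given next.

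Whether drought acted differently by genotype was tested as the difference of the log2 drought responses. JAR1-OE minus jar1-11 passed for 5 of the 9 genes, all lower, where 30.8% of all genes were called. P5CS2 differed by -2.33 ± 0.36 (edgeR adjusted p = 1.01e-04), PRODH1 by -3.00 ± 0.59 (8.54e-04), P5CDH by -1.45 ± 0.24 (1.89e-04) and OAT by -1.33 ± 0.26 (9.36e-04), and each was called without any 1 library. For P5CS2, OAT and P5CDH the log2 change was smaller in JAR1-OE, and for PRODH1 the fall was deeper. PROT2 differed by -1.68 ± 0.60 (edgeR adjusted p = 0.0404), which ended without any 1 of 7 libraries (edgeR adjusted p = 0.0691 to 0.123), namely watered jar1-11 library 2 or 3, droughted jar1-11 library 2, watered JAR1-OE library 2 or 3 and droughted JAR1-OE library 2 or 3. Against WT, JAR1-OE differed in 3 genes, P5CR, PRODH2 and P5CDH, where 6.01% of all genes were called. P5CS2 did not pass there, at -1.14 (edgeR adjusted p = 0.0628), and was called at -1.43 without droughted WT library 1, the one with flower markers (edgeR adjusted p = 0.00714). PROT1 did not pass either, at 0.96 (edgeR adjusted p = 0.0614), and was called at 1.15 without watered WT library 1 (edgeR adjusted p = 0.0191). Against WT, jar1-11 differed in 3 genes as well, P5CS2, PRODH1 and PRODH2, where 15.6% of all genes were called. Each of these 6 calls ended on leaving out at least 1 library, and without droughted WT library 2 the PRODH2 differences came to 3.71 for JAR1-OE and 3.73 for jar1-11. The P5CS1 response did not pass for any pair, with differences of -0.69 ± 0.27 for JAR1-OE minus WT (edgeR adjusted p = 0.127), -0.03 ± 0.27 for jar1-11 minus WT (0.966) and -0.66 ± 0.27 for JAR1-OE minus jar1-11 (0.0659). It was called for JAR1-OE minus WT at -0.89 without droughted WT library 1 (edgeR adjusted p = 0.0334) and for JAR1-OE minus jar1-11 at -0.82 without watered jar1-11 library 1 (edgeR adjusted p = 0.0400). For JAR1-OE minus jar1-11 the P5CS1 response was also called at -0.68 by DESeq2 (DESeq2 adjusted p = 0.0442). With only the groups compared it was called there at -0.66 (edgeR adjusted p = 0.0279). PROT1 was called for JAR1-OE minus jar1-11 at 0.86 without droughted JAR1-OE library 1 (edgeR adjusted p = 0.0466), against 0.74 with it (0.0658).

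Genes around the pathway were read from lists of general knowledge, of which the 2 with the smallest p under drought in WT are named. Their counts stand beside the 29.1% of all genes called under drought in JAR1-OE, 58.4% in jar1-11 and 39.3% in WT. Of 11 genes that supply ornithine and arginine, 1 was higher and 4 lower under drought in JAR1-OE, 4 higher and 6 lower in jar1-11, and 3 higher and 3 lower in WT. NAGK, the N-acetylglutamate kinase of ornithine synthesis, fell in all 3, to 23.5 CPM in droughted against 52.4 CPM in watered JAR1-OE, 13.3 against 41.5 CPM in jar1-11 and 19.6 against 39.5 CPM in WT. ARGAH2, an arginase that frees ornithine, averaged 208 CPM in droughted JAR1-OE (331, 141 and 151 CPM by library) and 81.6 CPM in watered JAR1-OE. Its log2 fold change there was 1.35 ± 0.29 (edgeR adjusted p = 0.00165). ARGAH2 was lower under drought in the other genotypes, at 2.90 against 27.7 CPM in jar1-11 and 17.8 against 46.4 CPM in WT. The difference of the ARGAH2 response between JAR1-OE and WT was 2.72 ± 0.42 (edgeR adjusted p = 9.92e-04), opposite in sign to those of P5CR and P5CDH and of the same sign as that of PRODH2.

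Of 4 further transporters that carry proline, 3 were tested and PROT3 was not. In JAR1-OE and in WT 1 was higher and 1 lower, and in jar1-11 2 were higher and 1 lower. AAP1, an amino acid permease, rose by 1.28 ± 0.15 in JAR1-OE (edgeR adjusted p = 4.27e-06), 2.82 ± 0.16 in jar1-11 (6.72e-11) and 1.85 ± 0.15 in WT (2.29e-08), the same order of genotypes as for P5CS2, OAT and P5CDH. AAP6, another permease, was lower, at -1.52 ± 0.27 in JAR1-OE (edgeR adjusted p = 3.51e-04), -5.38 ± 0.38 in jar1-11 (9.36e-10) and -3.93 ± 0.31 in WT (1.32e-08). Of 9 bZIP factors of groups C and S, 2 were higher and 3 lower in JAR1-OE, 6 higher and 2 lower in jar1-11, and 3 higher and 1 lower in WT. bZIP63 averaged 3.80 CPM in droughted and 34.3 CPM in watered JAR1-OE, 1.28 and 19.7 CPM in jar1-11, and 1.63 and 24.8 CPM in WT, each called lower. bZIP9 averaged 20.9 CPM in droughted and 10.1 CPM in watered JAR1-OE, 22.0 and 4.67 CPM in jar1-11, and 25.3 and 6.96 CPM in WT, each called higher.

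Of 3 other regulators, 1 was higher in JAR1-OE, 2 in jar1-11 and 1 in WT. MYB2, a MYB factor of the drought and abscisic acid response, rose by 1.07 ± 0.36 in JAR1-OE (edgeR adjusted p = 0.0294), 1.49 ± 0.35 in jar1-11 (0.0013) and 1.09 ± 0.37 in WT (0.0240). Its call in JAR1-OE ended without any watered JAR1-OE library or droughted JAR1-OE library 1 or 2 (edgeR adjusted p = 0.0539 to 0.140), and that in WT without watered WT library 1 or 3 or droughted WT library 2 or 3 (0.0654 to 0.0856). HY5, a bZIP factor of light signalling, had log2 fold changes of 0.11, 0.77 and 0.06 that did not pass, although it was called in jar1-11 at 0.94 without droughted jar1-11 library 1 (edgeR adjusted p = 0.0462). Of 5 glutamate dehydrogenases and mitochondrial carriers, 4 were tested and GDH3 was not. In JAR1-OE 1 was higher and 2 lower, in jar1-11 2 higher and 1 lower, and in WT 1 higher and 1 lower. BAC2, a mitochondrial carrier of basic amino acids, rose by 3.11 ± 0.45 in JAR1-OE (edgeR adjusted p = 4.31e-05), 3.45 ± 0.41 in jar1-11 (9.13e-07) and 3.50 ± 0.42 in WT (2.20e-06). GDH1, a glutamate dehydrogenase subunit, was lower, at -1.15 ± 0.18 in JAR1-OE (edgeR adjusted p = 8.42e-05), -1.61 ± 0.19 in jar1-11 (6.25e-07) and -1.36 ± 0.18 in WT (9.46e-06).

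Genes of like pattern were sought over the 18 libraries, among 10673 genes. They are those with the smallest root mean square difference from P5CS1 or PRODH1 in log2 CPM centred on each gene's mean. The same libraries served for this choice, so the drought changes of these genes largely follow from it. Their calls are descriptions and add no separate evidence. For P5CS1 the nearest were AT4G02360 at 0.495, FBH3 at 0.518, PUB19 at 0.610, AT3G53980 at 0.630 and AT5G15190 at 0.633, beside an SD of P5CS1 itself of 2.66. Each of these 5 was called higher under drought in the 3 genotypes, for example PUB19, a U-box ubiquitin ligase gene, by 5.30 in JAR1-OE (6.22 without watered JAR1-OE library 1), 6.45 in jar1-11 and 6.10 in WT. For PRODH1 the nearest were AT5G14120 at 0.620, CYP71B22 at 0.824, AT2G30600 at 0.850, SMT3 at 0.859 and AGP16 at 0.874, beside an SD of PRODH1 of 1.93. AT5G14120 was lower, at -3.82 in JAR1-OE, -2.73 in jar1-11 and -4.00 in WT, each called. CYP71B22, a cytochrome P450 gene, was called lower in JAR1-OE at -3.00 and in WT at -2.70, and at -0.51 in jar1-11 it did not pass (edgeR adjusted p = 0.0617), though it was called there without droughted jar1-11 library 2 (0.0278).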

How the data were processed

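Counts were deposited by the authors as unique reads per gene, per the file headers, and libraries were made with a QuantSeq 3′ kit and sequenced as single reads of 50 bases, per the labels' protocols. No source used here names the aligner, the counter, the build or the strand setting (not given). The 9 genes, the other lists and the tests were chosen with earlier results of these data known. Groups followed the labels, 3 libraries each. Of 27655 identifiers 27445 matched TAIR10.1, 27432 with equal length. The YFP-JAR1 entry (732 bases) was kept out of totals and tests. Between replicates of a group the counts gave chi-square values of 5.54 to 27.9 times their degrees of freedom (18 pairs). No library was thus a repeat of another of its group. Pairs with watered WT library 1 gave 26.8 and 27.9, against 6.53 for watered WT libraries 2 and 3. Pairs with droughted jar1-11 library 2 gave 23.3 and 20.6, against 5.72 for droughted jar1-11 libraries 1 and 3.

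Counts were scaled by TMM, filtered with filterByExpr, which set 9977 genes aside, and modelled with edgeR 4.0.16 under R 4.3.3 over all 18 libraries with 1 mean per group, for 12 contrasts, each adjusted over 17678 genes at a threshold of 0.05. The biological coefficient of variation was 19.8%. Settings tried besides were DESeq2 1.42.0, RLE scaling, limma-voom 3.58.1, no filter, only the groups compared, a replicate block, no organelle genes (210 left out) and leaving out each library. The procedure was tested on simulated data. All 9 genes were described. From each other list the 2 genes with the smallest p in WT were named, and for P5CS1 and PRODH1 the 5 of most like pattern with a mean of at least 10 CPM. Limits from read numbers cover counting error only, as no molecular identifiers are described.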

Additional observations from a re-analysis of the deposited data

Results flagged for a closer look

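Differences between genotypes in the drought response passed the test of the difference itself for 11 pairs of gene and contrast (edgeR, Benjamini-Hochberg adjusted). For JAR1-OE minus jar1-11 they were P5CS2 at -2.33, OAT at -1.33, PRODH1 at -3.00, P5CDH at -1.45 and PROT2 at -1.68, of which the first 4 were called without any 1 library. PROT2 (edgeR adjusted p = 0.0404) ended without watered jar1-11 library 2 or 3, droughted jar1-11 library 2, watered JAR1-OE library 2 or 3, or droughted JAR1-OE library 2 or 3 (0.0691 to 0.123).

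For JAR1-OE minus WT they were P5CR at -1.10 (edgeR adjusted p = 0.0477), PRODH2 at 2.73 (0.0357) and P5CDH at -0.94 (0.0269). P5CR ended on leaving out any 1 library of 9, namely any droughted WT, watered JAR1-OE or droughted JAR1-OE library (0.0606 to 0.108), with only the groups compared (0.0929) and with no organelle genes (0.0502). P5CDH ended without watered WT library 3, droughted WT library 2 or 3, watered JAR1-OE library 1 or 3, or droughted JAR1-OE library 1 or 2 (0.0516 to 0.0794). PRODH2 ended without watered WT library 1, droughted WT library 1 or 3, watered JAR1-OE library 2 or 3, or droughted JAR1-OE library 1 or 2 (0.0535 to 0.0976), and with limma-voom (0.0522), and it came to 3.71 without droughted WT library 2.

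For jar1-11 minus WT they were P5CS2 at 1.19 (edgeR adjusted p = 0.0290), PRODH1 at 2.09 (0.0206) and PRODH2 at 2.77 (0.0173). P5CS2 ended without watered WT library 1 or 3, droughted WT library 1 or 2, watered jar1-11 library 1 or 2, or droughted jar1-11 library 1 or 2 (0.0507 to 0.0797). PRODH1 ended without watered WT library 1, which held the highest watered WT value, or droughted jar1-11 library 2 (0.0538 and 0.0536). PRODH2 ended without droughted jar1-11 library 2 (0.0623) and came to 3.73 without droughted WT library 2. With only the groups compared P5CS2 ended (0.0638), and with limma-voom PRODH1 ended (0.0614).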

How the results depend on the processing

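No called change of the 9 genes was reversed under any alternative. Counts of called proline genes that moved by over 1.5 times were few. With only the groups compared, JAR1-OE against WT had 3 in place of 6 under drought, where P5CS1, PRODH2 and PROT1 ended (edgeR adjusted p = 0.0604, 0.0775 and 0.0700), and 0 in place of 1 with water, and JAR1-OE against jar1-11 had 1 in place of 0 with water (PRODH1, edgeR adjusted p = 0.0418). In that setting the response of JAR1-OE minus jar1-11 had 8 in place of 5, adding P5CS1, P5CR and PROT1 (edgeR adjusted p = 0.0279, 0.00707 and 0.0436). DESeq2 gave 5 in place of 3 for the response of JAR1-OE minus WT, adding P5CS2 and PROT1. Replicate numbers did not pair the samples: same-numbered libraries correlated at -0.40 to 0.28 over 45 pairs, 10 of them above 0.1, and 1 of 18 libraries was closest to its own number. With a replicate block the watered JAR1-OE and WT comparison had 0 in place of 1 and the other counts stayed within 1.5 times, although P5CR (0.0586) and PROT2 (0.0543) also ended for droughted JAR1-OE against jar1-11, PROT2 (0.0579) for that response and P5CR (0.0610) for the response of JAR1-OE minus WT.

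Leaving out 1 library at a time, the count was 2 to 6 for JAR1-OE against WT and 4 to 7 for JAR1-OE against jar1-11 under drought, 0 to 1 for JAR1-OE against WT with water, and for the responses 0 to 3 for JAR1-OE minus WT, 0 to 3 for jar1-11 minus WT and 4 to 6 for JAR1-OE minus jar1-11. The response of jar1-11 minus WT had 0 without droughted jar1-11 library 2 and 1 without watered WT library 1. Over all genes, only the groups compared gave 871 in place of 1859 called for watered JAR1-OE against WT and 3229 in place of 1784 for watered JAR1-OE against jar1-11, and DESeq2 gave 1645 in place of 1062 for the response of JAR1-OE minus WT and 12 in place of 1 for watered jar1-11 against WT. Leaving out 1 library gave 1586 to 3023 for droughted and 556 to 2054 for watered JAR1-OE against WT, 3737 to 5926 for droughted jar1-11 against WT, 639 to 1672 for watered JAR1-OE against jar1-11, and 569 to 1418 and 1458 to 3074 for the responses of JAR1-OE and jar1-11 minus WT. The cause of these changes was not tested. The ratios stayed at 8.67 to 8.98, 2.66 to 2.79 and -4.37 to -3.90 without any 1 library.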
